A study of Adonis amurensis with 6 samples.

Results

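The flower bud differentiation (FBD) library of Adonis amurensis was compared by gene function with the other 5 libraries of the series. A. amurensis is a perennial of the Ranunculaceae whose yellow flowers open before its leaves. Floral organs were taken from plants of an open field, with 1 library per stage and 6 libraries in all. The other stages were the young alabastrum (YA), the visible color alabastrum (VCA), the early flowering stage (EFS), the full bloom stage (FBS) and the senescing flower stage (SFS). FBD, YA and VCA were labelled as flower bud tissue, and EFS, FBS and SFS as flower tissue. No genotype, clone, age or treatment that differs between the stages is given in the labels. The values were FPKM, the number of fragments per kilobase of an assembled contig, scaled to the number of mapped reads.

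The contigs, called unigenes, were assembled without a reference genome, and almost none of the FPKM lay on unigenes at like levels in FBD and the other libraries. FPKM were therefore summed over all unigenes that share a KEGG orthology number (a K number, which stands for 1 function in any species), and separately over all unigenes that share a best-matching Arabidopsis locus. Of 190353 unigenes, 69564 carried a K number and 69076 an Arabidopsis locus. The sums gave 3851 functions and 11988 loci. FBD was set against the mean of the other 5 libraries as log2((FBD + 1)/(mean + 1)), over functions with a sum of at least 5 FPKM on either side. A function was counted as higher or lower at a ratio of 2-fold or more. No stage has a replicate, so no test was possible, and each value is set beside the range of the other 5 stages, which holds stage differences as well as error. The numbers of reads behind the values are unknown.

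During flower bud differentiation a shoot apical meristem turns into a floral meristem and lays down the primordia of sepals, petals, stamens and carpels. Such tissue is made of small dividing cells that copy DNA, build ribosomes and keep fate genes under chromatin control. Later flower stages grow by cell expansion, build pigments and scent compounds, and loosen cell walls.

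Of the FPKM of FBD that carried a K number, 99.3% lay on unigenes whose FBD value exceeded the mean of the others by 20-fold or more, and these unigenes held 0.0761% of the mean of the others. In the same way, 99.1% of the mean of the others lay on unigenes at least 20-fold lower in FBD. Unigenes with a K number held 77.3% of the FPKM in FBD and 69.0 to 73.7% in the others. An FPKM above 0 was listed for 3794 functions in FBD and for 3775 to 3787 in the others. The functions are those found in these same libraries and any value above 0 counts. These counts therefore do not show how complete a library is. A depth relative to YA was estimated from the most common FPKM ratio among unigenes that were low in both libraries. It was 0.812 in FBD and 1.01 to 1.15 in the other 4 libraries. The FBD value is uncertain, since it rests on 464 unigenes, against 15116 to 18158 for the others.

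The best match of the unigenes in the Nr database also differed. Of the FPKM with an Nr match, 0.214% in FBD and 1.38 to 1.88% in the others fell on matches to the Ranunculaceae, the family of Adonis. Matches to the poppy family, Papaveraceae, held 0.587% in FBD and 0.0738 to 0.228% in the others. Within it, Papaver held 0.357% in FBD and 0.00803 to 0.0154% in the others. Eschscholzia, at 0.152% in FBD, lay within the 0.0408 to 0.210% of the others. A higher share in FBD also fell on Amborella, 2.06% against 0.736 to 0.941% in the others. Matches to the genus Adonis itself held 0.00515% in FBD and 0.230 to 0.348% in the others. Most FPKM matched distant species in all libraries, and Nelumbo (sacred lotus) alone held 44.9% in FBD and 37.1 to 38.3% in the others. Which plant the FBD library came from was not tested, and its stage and its origin cannot be told apart. Every difference below is therefore a difference of 1 library of uncertain origin. Fewer cells of a type and less RNA per cell cannot be told apart either.

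Of 3762 functions with a sum of at least 5 FPKM, 1177 (31.3%) were 2-fold or more higher in FBD and 540 (14.4%) were 2-fold or more lower. FBD lay above all 5 other libraries in 1833 functions (48.7%), below all of them in 840 (22.3%) and within their range in 1089. A ratio of 10-fold or more was found for 78 higher and 83 lower functions. The median log2 ratio over all functions was 0.42, so lists of functions are described below relative to this value. When the libraries were rescaled so that the typical function had 1 level in all of them, which divided FBD by 1.33, 747 functions were higher and 866 lower. The direction of the overall balance thus depends on the scaling. Across the 3762 functions, the log2 sums of FBD correlated with YA at r = 0.75 and with VCA at 0.76, and less with EFS (0.69), FBS (0.66) and SFS (0.60). The other 5 libraries correlated with each other at 0.87 to 0.98. These correlations are across functions, which are not independent, and the sums share 1 annotation.

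**Figure D1:**
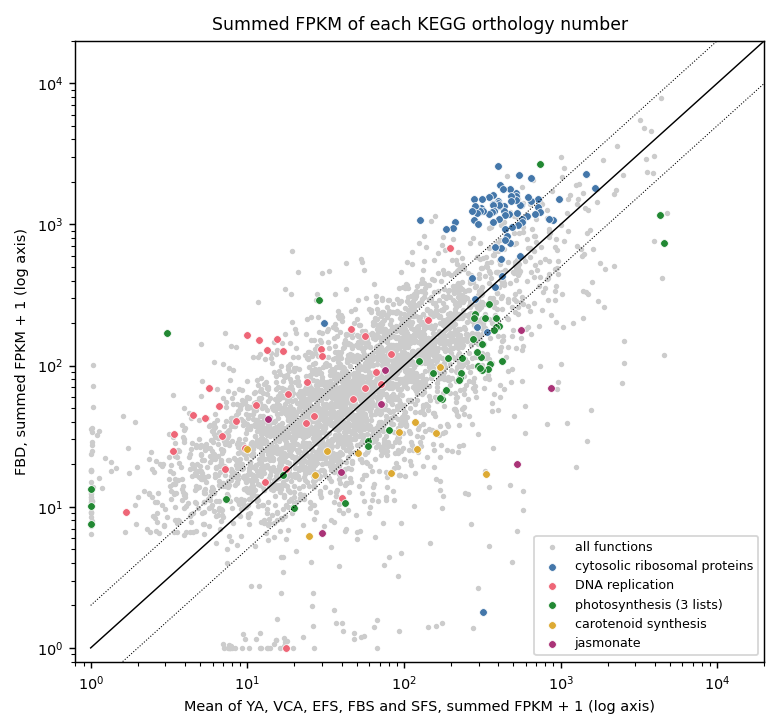
Summed FPKM + 1 of each KEGG orthology number in FBD (y axis, log scale) against the mean of YA, VCA, EFS, FBS and SFS (x axis, log scale). Each point is 1 of 3762 functions, the solid line marks equal values and the dotted lines a 2-fold ratio; most cytosolic ribosomal proteins and DNA replication functions lie above the upper dotted line, and most carotenoid functions lie below the lower one.

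By Arabidopsis locus, 3758 of 9746 loci (38.6%) were 2-fold or more higher in FBD and 2317 (23.8%) were lower. With the rescaling, 2922 loci were higher and 2842 lower. The shares of loci past 2-fold exceed those of functions before the rescaling, and the correlations with FBD were lower (0.21 to 0.35) while those among the others were 0.83 to 0.96. Loci split what functions join. Of the higher loci with a K number, 44.5% belonged to a function that was also higher, and of the lower loci 38.0% belonged to a function that was also lower. Among 1591 functions with at least 2 loci, 655 (41.2%) held loci past 2-fold in both directions.

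Ribosomal protein L7Ae shows how this happens. Its locus At2g47610 was at 1602 FPKM in FBD and between 0.45 and 1.28 in the others, and its locus At3g62870 was at 1.07 in FBD and between 77.7 and 675 in the others. The 2 loci encode near-identical proteins, and FBD and the other libraries fell on opposite members of the pair. The function as a whole was at 1603 in FBD against 554 (YA), 676 (VCA), 336 (EFS), 196 (FBS) and 78.3 (SFS), a log2 ratio of 2.12. Light-harvesting protein LHCB1 gave a like picture, with At1g29910 at 1122 in FBD and at most 36.9 elsewhere, and At1g29930 at 38.1 in FBD and 1466 to 6704 elsewhere. For several loci below, the sum over the gene family is therefore given too.

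**Figure D2:**
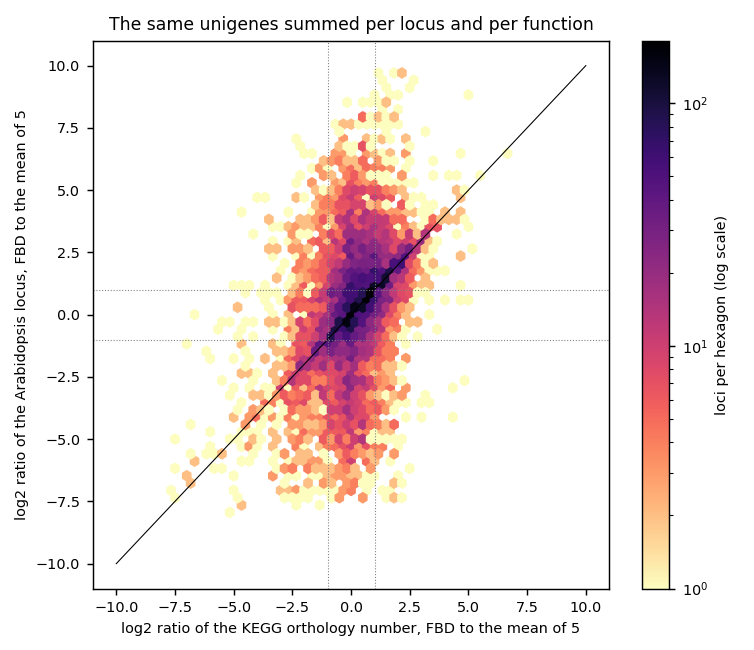
Log2 ratio of FBD to the mean of the other 5 libraries for each Arabidopsis locus (y axis) against the ratio of the KEGG orthology number that its unigenes carry (x axis), with the number of loci per hexagon in colour on a log scale. Dotted lines mark 2-fold ratios; the loci spread much further along the y axis than the functions do along the x axis.

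K numbers can also split a function. Translation initiation factor eIF5A, K03263, was at 11.9 in FBD and at 442 to 663 in the others, while the number of the checkpoint protein BUB3, K02180, was at 650 in FBD and at 13.0 to 25.1 in the others. The leading FBD unigene of K02180 carried the name eIF5A-2, and the KOG group that joins these unigenes (KOG is a second orthology database) had a log2 ratio of 0.12. The cytochrome oxidase assembly factor PET100 was divided in the same manner between an animal type number, 0.22 in FBD and 35.7 to 87.5 in the others, and a fungal type number, 70.9 in FBD and at most 0.17 in the others. Each called function was therefore compared with its KOG group. Of 1125 higher functions with such a group, 848 (75.4%) were higher by 2-fold in the group too and 40 were lower. Of 497 lower functions, 325 (65.4%) were lower in the group too and 16 were higher.

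Ribosomal proteins stood higher in FBD. Of 79 cytosolic ribosomal proteins, 51 were 2-fold or more higher and 1 was lower, against 31.3% and 14.4% of all functions, and the list's median log2 ratio was 1.50, which is 1.08 above that of all functions. Their FPKM summed to 94680 in FBD against 50493 (YA), 63284 (VCA), 34019 (EFS), 23555 (FBS) and 13154 (SFS). The sum thus stood highest in FBD, and among the others it was higher in both closed buds than in all open flowers. Small subunit protein S3Ae was at 2610 in FBD against 576 (YA), 800 (VCA), 338 (EFS), 199 (FBS) and 87.4 (SFS). S8e was at 2137 in FBD and between 202 and 1155 in the others. Relative to YA alone, the median of the list was 1.05. The member that was lower, the very short L41e, was at 0.80 in FBD and at 64.8 to 631 in the others. L18e was at 1811 in FBD within 1214 to 2408 in the others, but its leading unigene in the others carried the name of a proline-rich protein.

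Other steps of translation and RNA processing differed by group. Of 22 aminoacyl-tRNA synthetases, which charge tRNAs with amino acids, 12 were higher and 1 was lower (median 1.03). Valyl-tRNA synthetase was at 172 in FBD and 18.7 to 38.9 in the others. Translation factors were near the shares of all functions, with 16 of 44 higher and 5 lower (median 0.78), and eIF3 subunit A was at 258 in FBD and 34.6 to 127 in the others. RNA splicing was more uniform, with 41 of 71 functions higher and 0 lower (median 1.25). PRP8, the core protein of the spliceosome, was at 220 in FBD against 34.0 (YA), 35.2 (VCA), 22.3 (EFS), 25.5 (FBS) and 19.8 (SFS). The U4/U6 protein SNU13 was at 561 in FBD and 83.5 to 357 in the others. FBD thus lay above every other library in 56 of the 71 splicing functions, against 48.7% of all functions.

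DNA replication stood higher still. Of 36 functions, 24 were higher and 2 lower, and the median of 1.88 stood 1.46 above that of all functions. The MCM2-7 helicase unwinds DNA at the replication fork. Each of its 6 subunits was above all 5 other libraries, against 48.7% of all functions. MCM3 was at 165 in FBD against 18.3 (YA), 21.5 (VCA), 4.77 (EFS), 0.29 (FBS) and 0.25 (SFS). MCM2 was at 153 in FBD and at 2.45 to 26.6 in the others, and MCM5 at 128 in FBD and at 0.75 to 26.1. MCM7 differed least, at 179 in FBD and at 7.02 to 97.1 in the others. PCNA, the sliding clamp of the polymerases, was at 161 in FBD against 98.4 (YA), 116 (VCA), 33.7 (EFS), 22.6 (FBS) and 7.76 (SFS). The catalytic subunit of polymerase alpha was at 68.7 in FBD and 0.46 to 10.9 in the others, whereas that of polymerase delta was at 68.6 in FBD within 38.2 to 69.4. Subunit 4 of polymerase epsilon was listed at 0 in FBD and at 11.1 to 21.8 in the others.

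Cell division functions stood on the same side. Of 39 functions, 30 were higher and 1 lower (median 1.52). Cyclin A was at 123 in FBD against 33.4 (YA), 44.0 (VCA), 17.8 (EFS), 8.29 (FBS) and 16.0 (SFS), and cyclin B, which drives entry into mitosis, at 283 in FBD and 88.2 to 123 in the others. Condensin subunit 1, of the complex that folds chromosomes for mitosis, was at 30.1 in FBD and at 0.16 to 6.96 in the others. Relative to YA alone, the medians were 1.28 for division and 1.24 for replication.

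Histones did not follow this pattern. All 5 histone functions lay within the range of the other libraries, against 28.9% of all functions, with 0 higher and 0 lower by 2-fold. Histone H2A was at 7918 in FBD against 7703 (YA), 9861 (VCA), 2404 (EFS), 978 (FBS) and 1014 (SFS). H4 was at 3060 in FBD against 6811 (YA), 8227 (VCA), 2706 (EFS), 1108 (FBS) and 755 (SFS), so FBD lay between the buds and the open flowers. Relative to YA the median of the histones was -0.08. Histones were nonetheless 3 of the 4 functions with the highest summed FPKM in FBD, namely H2A, H2B (5448) and H3 (4808), followed by ubiquitin C (4556).

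**Figure D3:**
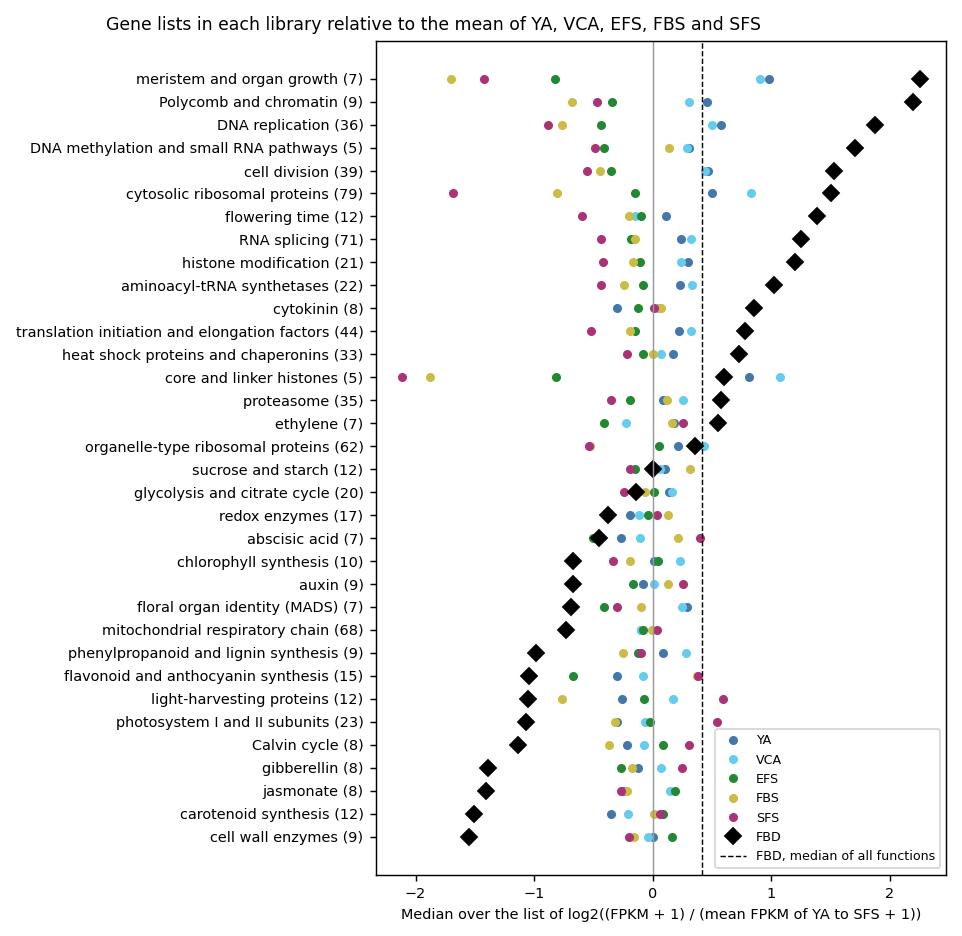
Median log2 ratio of each gene list to the mean of YA, VCA, EFS, FBS and SFS (x axis), with the number of kept members in brackets, for FBD (black diamonds) and for each of the other 5 libraries (coloured points). The dashed line is the median of all functions in FBD, 0.42; the diamonds of DNA replication (1.88), cell division (1.52) and ribosomal proteins (1.50) lie right of every other library, and those of carotenoid synthesis (-1.50) and cell wall enzymes (-1.55) lie left of every other library.

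Chromatin and RNA silencing functions stood high. Of 5 functions for DNA methylation and small RNA pathways, 4 were higher and 0 lower (median 1.71). FBD lay above all other libraries in all 5, against 48.7% of all functions. The maintenance-type DNA methyltransferases (K00558) were at 632 in FBD against 141 (YA), 141 (VCA), 76.1 (EFS), 136 (FBS) and 60.9 (SFS). Argonaute proteins, which carry small RNAs, were at 1840 in FBD and at 416 to 689 in the others, although the leading unigene of the others under this number was named as a glycine-rich protein. Of 21 histone-modifying functions, 11 were higher and 2 lower (median 1.20). Histone deacetylase 1/2 was the most distant of the higher members, at 568 in FBD against 38.5 (YA), 76.4 (VCA), 62.0 (EFS), 50.9 (FBS) and 33.3 (SFS), and its leading unigene was named histone deacetylase 19 on both sides. The H3K27 methyltransferase of Polycomb (EZH2 type) did not stand higher, at 40.9 in FBD and 44.2 to 62.5 in the others. The H3K9 methyltransferase SUV39H, the member farthest from the others in either direction, was at 0.03 in FBD and 10.6 to 23.6. Another H3K9 methyltransferase number (K11420) was higher in FBD, at a log2 ratio of 2.23.

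Single loci gave the members of these groups. Of 9 Polycomb and chromatin loci, 6 were higher and 1 lower, against 38.6% and 23.8% of all loci. CMT3, which methylates cytosines at CHG sites, was at 368 in FBD against 92.9 (YA), 91.8 (VCA), 21.8 (EFS), 5.94 (FBS) and 6.39 (SFS). MET1, which maintains CG methylation, was at 91.5 in FBD and 1.22 to 17.6 in the others. AGO1 was at 561 in FBD and 75.1 to 168 in the others, and its close paralog AGO10 at 84.2 in FBD and 3.82 to 23.6, so their sum, 645, also lay above the others (79.6 to 190). MSI1, a histone-binding subunit of Polycomb and chromatin assembly complexes, was at 187 in FBD, a log2 ratio of 2.12. In contrast, CLF was at 30.4 in FBD within 15.1 to 34.4, and SWN, the other H3K27 methyltransferase, was at 10.5 in FBD and 14.4 to 43.8. The locus TFL2, which encodes the H3K27me3 reader LHP1, was at 94.4 in FBD and at most 0.19 in the others. By Swiss-Prot name, however, LHP1 summed to 94.4 in FBD and 7.62 to 14.6 in the others, so the larger gap belongs to the locus assignment.

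All 7 meristem and organ growth loci in the table were 2-fold or more higher in FBD, against 38.6% of all loci. Relative to YA alone, 5 of the 7 were, and the share over all loci was not computed for YA. ERECTA, a receptor kinase for organ growth, was at 146 in FBD against 27.5 (YA), 31.0 (VCA), 9.62 (EFS), 2.11 (FBS) and 1.88 (SFS). The sum of its family differed less from the buds, at 199 in FBD against 72.35 (YA), 62.4 (VCA), 18.8 (EFS), 7.77 (FBS) and 11.2 (SFS). AINTEGUMENTA, an AP2-type factor of organ primordia, was at 97.8 in FBD against 43.9 (YA), 30.2 (VCA), 5.43 (EFS), 3.62 (FBS) and 15.2 (SFS). Both loci were also higher in the buds YA and VCA than in the open flowers. REVOLUTA was at 106 in FBD and at most 0.11 in the others, but the class III HD-ZIP family to which it belongs summed to 237 in FBD against 72.7 (YA), 52.1 (VCA), 14.1 (EFS), 20.6 (FBS) and 5.17 (SFS). The class I KNOX genes, which keep meristem cells undetermined, summed to 39.8 in FBD and differed less from YA (26.1) and VCA (28.1) than from EFS (1.77), FBS (0.35) and SFS (0.76). Within them SHOOT MERISTEMLESS was at 21.8 in FBD, 14.8 in YA and 15.3 in VCA, although the leading unigene of this locus in the others carried a formin name. CLAVATA1 was at 7.37 in FBD and 0.16 to 4.05 in the others.

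**Figure D4:**
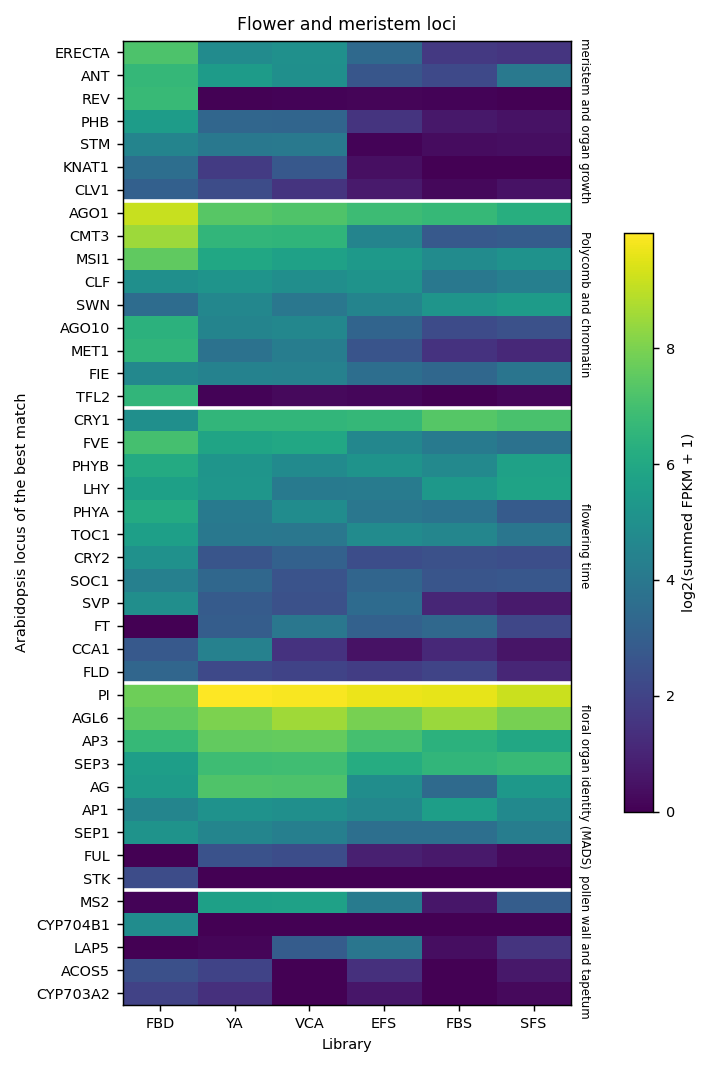
Log2(summed FPKM + 1) in the 6 libraries (columns, FBD first) for the Arabidopsis loci of 5 lists (rows): meristem and organ growth, Polycomb and chromatin, flowering time, floral organ identity and pollen wall. The meristem loci and most chromatin loci are brightest in FBD, whereas PI, SEP3 and CRY1 are darker in FBD than in every other library.

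Floral organ identity genes, the markers of the labelled tissue, were detected in FBD. Of this MADS-box list, 9 loci were in the table and 7 passed the minimum, of which 1 was higher, 2 were lower and 4 lay between. PISTILLATA, a B-class gene of petals and stamens, was at 221 in FBD against 1007 (YA), 940 (VCA), 825 (EFS), 784 (FBS) and 576 (SFS). Its partner APETALA3 was at 101 in FBD within 61.9 to 196. AGAMOUS, the C-class gene of stamens and carpels, was at 43.3 in FBD against 150 (YA), 146 (VCA), 29.0 (EFS), 10.04 (FBS) and 38.6 (SFS), so FBD was nearer to the open flowers than to the buds. SEPALLATA3 was at 47.2 in FBD and 71.6 to 121 in the others, SEPALLATA1 at 33.9 in FBD and 11.4 to 22.2, and their sum, 81.0, was just below the others (83.0 to 140). AGL6 was at 182 in FBD and 243 to 372 in the others. The median of the list was -0.69, and it was 1.51 when only unigenes whose best Nr match was sacred lotus were summed.

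Of 12 flowering time loci, 7 were higher and 2 lower, against 38.6% and 23.8% of all loci. The median of the list was 1.38, and 0.82 with a pseudocount of 10, against 0.48 and 0.32 over all loci. SVP, which delays flowering in Arabidopsis, was at 29.2 in FBD against 6.21 (YA), 4.61 (VCA), 10.2 (EFS), 1.12 (FBS) and 0.63 (SFS), and the flowering promoter SOC1 was at 19.6 in FBD and 4.87 to 8.95 in the others. Both MADS-box genes were thus higher in FBD. FT, whose protein moves from leaves to the apex in Arabidopsis, was listed at 0 in FBD and was at 3.35 to 14.6 in the others. No family sum was made for SVP, SOC1 or FT. The phytochromes, red light receptors, summed to 191 in FBD and to 56.0 to 65.5 in the others. The blue light receptors went apart, with CRY1 at 30.5 in FBD and 92.8 to 161 in the others and CRY2 at 31.6 in FBD and 4.18 to 7.65. Their sum of 62.1 was below the 98.0 to 166 of the others.

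Markers of the tapetum, the anther layer that builds the pollen wall, were low or uneven. MS2, a fatty acyl reductase for pollen wall lipids, was at 0.08 in FBD against 49.7 (YA), 51.8 (VCA), 16.5 (EFS), 0.54 (FBS) and 6.67 (SFS). LAP5, a polyketide synthase of the same wall, was listed at 0 in FBD and was at 14.3 in EFS. CYP704B1 went the other way, at 27.7 in FBD and listed at 0 in all others. Of 5 such loci in the table, only MS2 and CYP704B1 reached the minimum of 5 FPKM. The name pattern for seed storage proteins and oil bodies matched no K number. This list was searched by K number name only, so it gives no reading of seed tissue in any library.

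Photosynthesis stood lower in FBD, though not in every member. Of 23 photosystem functions, 13 were lower and 5 higher (median -1.07), of 12 light-harvesting proteins 7 were lower and 1 higher (-1.05), and of 8 Calvin cycle functions 6 were lower and 0 higher (-1.13). The Rubisco small subunit was at 736 in FBD against 3953 (YA), 3843 (VCA), 6186 (EFS), 2339 (FBS) and 6561 (SFS), a log2 ratio of -2.63. LHCB1 was at 1160 in FBD and 1466 to 6707 in the others. Every library thus expressed these genes. FBD lay below all others in 13 of the 23 photosystem, 5 of the 12 light-harvesting and 7 of the 8 Calvin cycle functions. Among all functions this share was 22.3%. The light-harvesting sum was 4829 in FBD within 2996 to 10748 in the others. LHCB2 (K08913) was the light-harvesting protein that was higher, at 2668 in FBD and 343 to 1210 in the others. With lotus-matched unigenes only, its log2 ratio turned from 1.86 to -3.07, and that of LHCB4 (K08915) from -1.77 to 6.46. Of the 5 higher photosystem functions, 4 were at or near 0 in the others, such as the D2 protein of photosystem II, at 9.09 in FBD and listed at 0 in all others, and the chloroplast-encoded CP47 was at 292 in FBD and 24.6 to 32.7 in the others.

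Pigment synthesis divided. Of 10 chlorophyll functions, 2 were higher and 1 lower, with a median of -0.68, or 0.01 when only the highest contig of each function was used. The most distant member was protochlorophyllide reductase, which carries out the light-dependent step. It was at 826 in FBD against 99.8 (YA), 163 (VCA), 156 (EFS), 126 (FBS) and 123 (SFS), but with only lotus-matched unigenes its log2 ratio was -0.72. Of 12 carotenoid functions, which make the yellow pigments, 8 were lower and 1 higher (median -1.50, and -0.47 with lotus-matched unigenes only). Phytoene synthase, the entry step, was at 24.7 in FBD against 142 (YA), 170 (VCA), 103 (EFS), 115 (FBS) and 72.4 (SFS), although its leading unigene in the others was named as a receptor-like kinase. Beta-carotene hydroxylase was at 16.2 in FBD and 161 to 600 in the others, a log2 ratio of -4.27 that turned to 3.51 with lotus-matched unigenes only. FBD lay below all other libraries in 10 of the 12, against 22.3% of all functions. The higher member was lycopene epsilon-cyclase, at 24.8 in FBD and 6.85 to 12.9. The plastid-lipid-associated proteins, which coat the carotenoid droplets of petals, fell under a number named ubiquinol oxidase (K17893) and were at 118 in FBD and 3195 to 6218 in the others (log2 ratio -5.27, and 3.79 with lotus-matched unigenes only).

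Flavonoid and anthocyanin synthesis was mixed. Of 15 functions, 8 were lower and 2 higher (median -1.04). Chalcone synthase, the entry step, was at 546 in FBD within 518 to 1476. Dihydroflavonol reductase was at 51.0 in FBD against 203 (YA), 114 (VCA), 555 (EFS), 887 (FBS) and 1219 (SFS), and anthocyanidin synthase (leucoanthocyanidin dioxygenase) was at 37.7 in FBD and 115 to 600 in the others. Flavonoid 3',5'-hydroxylase was at 0.32 in FBD and 44.2 to 151, and flavonol 3-O-glucosyltransferase was at 0.43 in FBD and 94.6 to 285. A number named for a flavonoid malonyltransferase gave the lowest ratio of all named functions, 0.39 in FBD and 121 to 570 in the others. The direction of this list is not firm, since its median was 3.88, and the ratio of dihydroflavonol reductase turned from -3.52 to 3.59, when only lotus-matched unigenes were summed.

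Phenylpropanoid functions, which feed both flavonoids and lignin, were lower in 4 of 9 and higher in 2 (median -0.99), and the leading FBD unigene of 1 of the higher numbers (K09754) carried the name of an alkaloid enzyme. Phenylalanine ammonia-lyase, the entry step, was at 67.9 in FBD against 301 (YA), 336 (VCA), 254 (EFS), 232 (FBS) and 258 (SFS), a log2 ratio of -2.01 that was 2.96 with lotus-matched unigenes only. Of 9 cell wall functions, 5 were lower and 0 higher (median -1.55). Xyloglucan endotransglucosylase, which remodels expanding walls, was at 420 in FBD against 1153 (YA), 1069 (VCA), 3415 (EFS), 8200 (FBS) and 8346 (SFS), and pectinesterase was at 758 in FBD and 2619 to 6641 in the others. Cellulose synthase did not follow, at 591 in FBD and 240 to 408. With matches of an E-value of 1e-30 or lower only, the median of the cell wall list was -0.43.

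The mitochondrial respiratory chain was lower as a group. Of 68 functions, 28 were lower and 3 higher (median -0.73, which is 1.15 below that of all functions). FBD lay below all other libraries in 40 of them, against 22.3% of all functions. Complex I subunit B10 (K03966) was at 74.9 in FBD against 1146 (YA), 1082 (VCA), 1212 (EFS), 894 (FBS) and 466 (SFS). The iron-sulfur subunit of succinate dehydrogenase was at 46.7 in FBD and 135 to 728 in the others. The beta subunit of ATP synthase was at 532 in FBD within 267 to 731. Subunit a of ATP synthase, which plant mitochondria encode, was at 0.57 in FBD and 46.0 to 91.8 in the others. With lotus-matched unigenes only, the median of the list was 0.10.

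Of 17 redox functions, 6 were lower and 1 higher (median -0.37). Glutathione peroxidase was at 148 in FBD against 1770 (YA), 1429 (VCA), 2169 (EFS), 3354 (FBS) and 3885 (SFS), and catalase, which breaks down hydrogen peroxide, at 65.2 in FBD and 193 to 499 in the others. The superoxide dismutases of the iron and manganese family were the member that was higher, at 303 in FBD and 92.6 to 159.

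Among hormone pathways, jasmonate stood lower, and the place of cytokinin depended on the scaling. Of 8 cytokinin functions, 4 were higher and 0 lower (median 0.85), and the leading unigene of the highest member, cytokinin trans-hydroxylase, was named as a cytochrome P450 of another family. The cytokinin receptors (histidine kinases) were at 280 in FBD against 86.9 (YA), 76.7 (VCA), 49.0 (EFS), 58.1 (FBS) and 58.3 (SFS). The phosphotransfer proteins that act after them were at 118 in FBD and 34.7 to 64.0 in the others, whereas the A-type response regulators were at 53.2 in FBD within 28.0 to 70.0. With the rescaling the cytokinin median was -0.01, near the -0.05 of all functions, and with lotus-matched unigenes only it was -0.24. Of 8 jasmonate functions, 5 were lower and 1 higher (median -1.41, and -0.64 with lotus-matched unigenes only). Lipoxygenase was at 19.0 in FBD against 494 (YA), 913 (VCA), 930 (EFS), 130 (FBS) and 180 (SFS), and oxophytodienoate reductase was at 68.8 in FBD and 611 to 1340. The JAZ repressors, whose genes respond to jasmonate, were at 178 in FBD and 364 to 789 in the others (log2 ratio -1.65, and 0.57 with lotus-matched unigenes only), and the receptor COI1 was the higher member, at 40.9 in FBD and 8.29 to 17.8.

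Auxin functions parted by role. Auxin response factors were at 1149 in FBD against 580 (YA), 577 (VCA), 467 (EFS), 548 (FBS) and 336 (SFS). The fast-responding SAUR genes were at 102 in FBD and 421 to 1702 in the others, and the efflux carriers (PIN family) at 106 in FBD and 147 to 390, a log2 ratio of -1.24 that was 1.21 with lotus-matched unigenes only. Of the 9 auxin functions, 1 was higher and 3 were lower (median -0.68). This median was -0.05 with matches of an E-value of 1e-30 or lower and -0.13 with lotus-matched unigenes only. Of 7 ethylene functions, 0 were higher and 1 was lower. This was ACC oxidase, the last step of ethylene synthesis, at 67.3 in FBD against 409 (YA), 154 (VCA), 707 (EFS), 1551 (FBS) and 1899 (SFS). The ethylene receptors were at 157 in FBD and 76.4 to 125. Of 8 gibberellin functions, 4 were lower and 1 higher (median -1.39), but the lowest, named gibberellin 3-oxidase and 2-oxidase, were led by unigenes with general dioxygenase names, and with lotus-matched unigenes only the median was 0.48. DELLA proteins, which restrain gibberellin responses, were at 315 in FBD and 165 to 285 in the others. Of 7 abscisic acid functions, 2 were higher and 3 lower (median -0.45, and 0.71 with lotus-matched unigenes only).

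Among functions with at least 50 FPKM on the higher side whose ratio stayed past 2-fold with matches of an E-value of 1e-30 or lower, the 15 with the highest and the 15 with the lowest ratio are a description of the extremes. At the upper end, subunit 7 of RNA polymerases IV and V, which serve RNA-directed DNA methylation in plants, was at 101 in FBD and at most 0.08 in the others, and its KOG group had a log2 ratio of 2.49. The high mobility group protein B3 number was at 455.5 in FBD and 8.58 to 48.1 in the others, and the ubiquitin ligase NEDD4 type (UPL5) at 321 in FBD and 13.5 to 21.6. Several others of the highest 15 were led in FBD by unigenes of unrelated name. K12866, named for a WW domain-binding protein, was led by a formin-like protein, and the DnaJ number K09529 by a fasciclin-like protein. With an E-value of 1e-30 or lower, the log2 ratio of K09529 fell from 4.31 to 2.37 and that of K09142 from 4.59 to 2.21. Others, such as MCM3, were led by a unigene of the same name. The KOG group was also past 2-fold in the same direction for 10 of these 15. At the lower end, pathogenesis-related protein 1 was at 3.05 in FBD against 307 (YA), 90.7 (VCA), 518 (EFS), 1121 (FBS) and 405 (SFS). The linalool synthase number, of floral scent, was at 1.65 in FBD against 2.25 (YA), 1.69 (VCA), 803 (EFS), 678 (FBS) and 3.29 (SFS), so FBD resembled the buds and the senescing flower there. The KOG group was past 2-fold in the same direction for 13 of the lowest 15.

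Enzymes of benzylisoquinoline alkaloids, the compounds of poppies and their relatives in the Ranunculales, were examined by Swiss-Prot name because several led unrelated K numbers in FBD. The group was thus picked from its FBD values. That members stand higher in FBD follows in part from this choice and is a description only. Norcoclaurine 6-O-methyltransferase was at 218 in FBD and 0.73 to 1.37 in the others. Coclaurine N-methyltransferase was at 227 in FBD against 46.6 (YA), 49.5 (VCA), 44.9 (EFS), 16.4 (FBS) and 21.3 (SFS). These steps lead towards reticuline, the branch point of the pathway. Reticuline oxidase (berberine bridge enzyme) was at 37.4 in FBD and at most 0.06 in the others, scoulerine 9-O-methyltransferase at 171 in FBD and 0.25 to 1.32, and tetrahydroprotoberberine N-methyltransferase at 114 in FBD and at most 0.17. The entry enzyme, norcoclaurine synthase, went the other way, at 372 in FBD against 2409 (YA), 2996 (VCA), 2026 (EFS), 1681 (FBS) and 1307 (SFS), and this name covers 31 unigenes. A second name for tetrahydroprotoberberine N-methyltransferase was at 21.6 in FBD and 32.3 to 111 in the others. N-methylcoclaurine 3'-hydroxylase divided likewise. Isozyme 2 was at 59.4 in FBD and at most 2.23 in the others, and the probable isozyme 2 at 0.09 in FBD and 8.30 to 18.6. No sum over such names was made. The names come from the nearest characterised protein, and the part of the library's origin in these values was not tested.

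**Figure D5:**
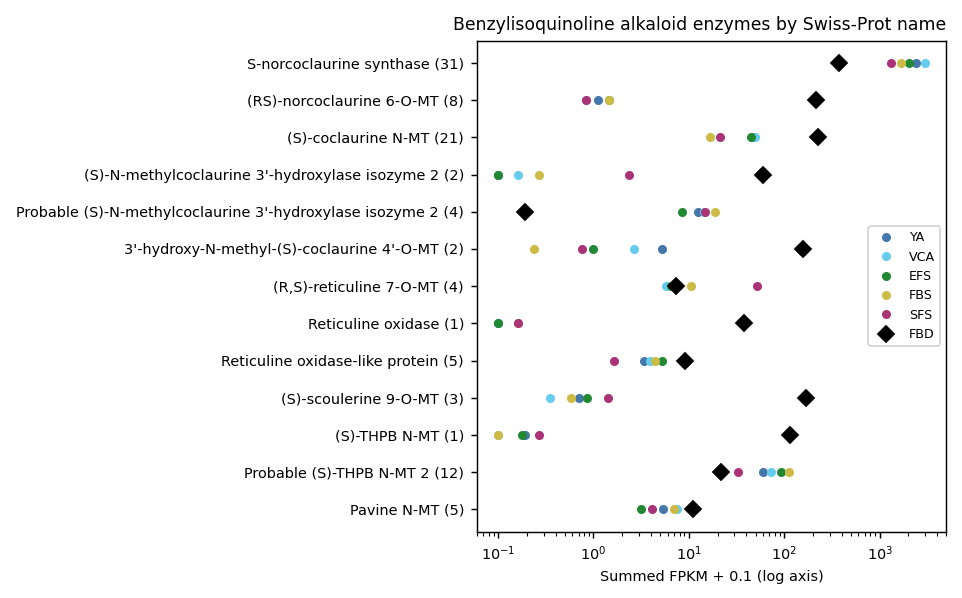
Summed FPKM + 0.1 (x axis, log scale) of enzymes named for benzylisoquinoline alkaloid synthesis (rows, number of unigenes in brackets, MT for methyltransferase and THPB for tetrahydroprotoberberine) in FBD (black diamonds) and the other 5 libraries (points). FBD lies right of all other libraries for 9 of the 13 names and left of all of them for 3, among them norcoclaurine synthase at 372. Of all functions by K number, FBD lay above all others in 48.7% and below all of them in 22.3%. The shares over all Swiss-Prot names were not computed. The group was picked because several members led K numbers in FBD, so the count of 9 is no result about the pathway.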

How the data were processed

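RNA of floral organs from 6 stages, 1 library each, was sequenced on an Illumina platform. The authors assembled the reads de novo with Trinity, matched unigenes to public protein databases and computed FPKM with RSEM, and the deposited FPKM have 2 decimals. The sources used here give no tool versions, and 2 lines of the table were emptied for this work. FPKM were summed per KEGG orthology number and per Arabidopsis locus with Python 3.11.15, numpy 2.4.6 and pandas 2.3.3, and plotted with matplotlib 3.10.9. A pseudocount of 1 was added, and sums under 5 FPKM in both FBD and the mean of the others were left out. Ratios understate the change of low sums. The arithmetic of summing and ratios was checked on copies of the YA values with known changes. Both sides of that check carried the same K numbers. It therefore could not show the effect of contigs that fall under different numbers or loci. The numbers of reads are unknown, so no interval was given.

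The members and lists were chosen with earlier results of these data known, and some list patterns were corrected after values had been seen. Named were the 10 functions with the highest FPKM in FBD, the 15 highest and 15 lowest ratios above 50 FPKM that held with an E-value of 1e-30 or lower, the 10 highest and 10 lowest loci, up to 4 members per list by mean FPKM, and all flower, chromatin and pollen loci. Not every name the rule gives is printed, and further members were named after their values had been seen. Alternatives covered pseudocount, minimum, scaling, centre, contig summing, annotation and the libraries in the mean.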

Additional observations from a re-analysis of the deposited data

How the results depend on the processing

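No paired analysis was possible because each stage has 1 library. With a minimum of 50 FPKM, 691 of 2388 functions (28.9%) were higher, and of 3381 loci 1181 (34.9%) were higher and 1003 (29.7%) lower. Scaled by the median ratio, 747 functions were higher and 866 lower. With a 4-fold threshold, 408 functions were higher and 227 lower, and 2042 loci were higher and 1510 lower. With a pseudocount of 10, 2324 loci were higher. Leaving out 1 of the other 5 libraries at a time gave 1118 to 1277 higher and 514 to 555 lower functions, and 3632 to 3954 higher and 2290 to 2341 lower loci. Summed per KOG group, an alternative chosen after seeing the data, 1315 were higher and 484 lower.

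Of 35 lists under 15 alternatives, 24 kept the sign of their median and 26 kept its sign relative to all functions. Of 153 named functions, 96 were past 2-fold, of which 10 were no longer so under the median-ratio scaling and 7 without SFS, and 0 reversed in either. With lotus-matched unigenes only, 72 of the 96 had a value. Of these 72, 17 reversed and 9 were no longer past 2-fold.

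Most reversals came from summing only unigenes whose best Nr match was Nelumbo nucifera. The median log2 ratio was then 3.88 for flavonoid synthesis and 0.48 for gibberellin. For single functions it was 3.27 for cinnamyl-alcohol dehydrogenase, -0.72 for protochlorophyllide reductase, 0.69 for beta-amylase, 1.95 for chalcone isomerase, 3.56 for tyrosyl-tRNA synthetase, 0.62 for complex I alpha/beta subunit 1 (K03955), 0.84 for gibberellin 3-oxidase (K04124), -3.07 for LHCB2 (K08913), 6.46 for LHCB4 (K08915), 2.96 for phenylalanine ammonia-lyase, -0.77 for hnRNP A1/A3 (K12741), -1.15 for splicing factor SR7 (K12896), 3.59 for dihydroflavonol reductase (K13082), 0.57 for JAZ (K13464), 1.21 for the PIN carriers (K13947), 3.51 for beta-carotene hydroxylase (K15746), 3.79 for K17893 and -6.79 for the locus At1g70600. With an E-value of 1e-30 or lower it was 1.80 for chalcone isomerase and 0.27 for proteasome subunit N6 (K03036). With the highest contig it was 0.69 for tyrosyl-tRNA synthetase and -0.56 for HSP20 (K13993). These sums use fewer unigenes, and the cause of the reversals was not tested. Without replicates or read counts, the error of a single function is unknown.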

Other observations

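Several other gene groups are given here beside the level of all functions in FBD (median log2 ratio 0.42). Of 35 proteasome functions, 10 were higher and 2 lower (median 0.58), and of 33 heat shock proteins and chaperonins, 12 were higher and 5 lower (median 0.73). Organelle-type ribosomal proteins, unlike the cytosolic ones, had 12 of 62 higher and 8 lower (median 0.35), with sums of 6454 in FBD and 4227 to 7967 in the others. Glycolysis and the citrate cycle had 2 of 20 higher and 2 lower (median -0.14, which is 0.56 below that of all functions). For sucrose and starch, 3 of 12 were higher and 3 lower (median 0.003, which is 0.41 below that of all functions).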
